A study of Sus scrofa with 19 samples.

Results

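The genes examined here move calcium in and out of the sarcoplasmic reticulum of heart muscle cells. Their mRNA was measured by bulk RNA-seq of pig tissue labelled as LV myocardium. The list holds 10 genes: RYR2, CASQ2, TRDN, JPH2 and HRC of the release unit, ATP2A2, PLN and SLN of calcium uptake, SLC8A1 of calcium extrusion and CAMK2D, a kinase that acts on several of them. Members were chosen by symbol in the authors' table of expressed genes and followed by Ensembl identifier into the raw counts. This found 9 of 10 members among 25879 counted genes. No row of the table has the symbol PLN, and the identifier that the reference annotation pairs with PLN has no row in the counts used here. The level of PLN, the SLN to PLN ratio and the PLN to ATP2A2 ratio were therefore not analysed here. PLN enters only the motif search in upstream sequence.

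In each heartbeat a small calcium current through the surface membrane opens the ryanodine receptor (RYR2), which releases stored calcium and starts contraction. Triadin (TRDN) and calsequestrin (CASQ2), the calcium-binding protein of the store, sit at the receptor on the inner side, and junctophilin 2 (JPH2) holds the store membrane close to the surface membrane. Relaxation follows when the pump SERCA2 (ATP2A2) returns calcium to the store, restrained by phospholamban (PLN) in ventricle and by sarcolipin (SLN) mainly in atrium, and when the sodium-calcium exchanger (SLC8A1) carries calcium out of the cell.

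The samples came from 19 female large white pigs, with 1 library per pig. The 5 pigs labelled DOX received doxorubicin and the 5 labelled MYO received Myocet, the same anthracycline in liposomes, each at 60 mg/m2 in 3 cycles, and their anterior wall was sampled after 3 months. The 3 pigs labelled RemoLV had a 90 min balloon occlusion with reperfusion and were sampled at 6 months in the posterior wall, remote from the infarction. The 3 pigs labelled Hyper had an aortic isthmus stenosis made by a stent of 9 mm, and the 3 labelled Control had no drug, infarction or stenosis. Both were sampled at 6 months in the anterior wall. The labels describe the Control pigs as sham-operated, while the study's methods call them untreated. The DOX and MYO libraries were taken over from an earlier experiment with a shorter follow-up, so experiment, length of follow-up and drug cannot be told apart.

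Libraries held 9527710 to 20370209 counts (median 14527230), and 13552 genes, all 9 members included, passed the filter on low counts. The names of the libraries are in conflict: 8 of 19 sample columns in the authors' table hold the values of a count file labelled as another group. By these table names, all 3 Control and all 3 RemoLV libraries change places and 1 DOX library changes places with 1 MYO library. Each such column follows 1 count file with a Spearman correlation of 1.0, while the next best file reaches at most 0.992. Which names are right was not settled here. Groups below are the libraries labelled so on the count files, and values by table names are given beside the members and the named genes. Only the contrast of the 2 drug groups with Hyper rests on the same libraries under both.

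The labelled tissue was checked against marker genes. The 3 libraries labelled RemoLV had 6029 to 8130 CPM (counts per 1000000 scaled counts) of MYL4, an atrial myosin light chain, against at most 21.9 CPM elsewhere, and 18.6 to 115 CPM of the ventricular light chain MYL2 against at least 8975 CPM elsewhere. The ventricular transcription factor IRX4 was at 0 to 0.178 CPM in these 3 libraries and at 8.38 to 27.7 CPM in the other 16. Of 7 atrial markers listed, 5 were found, and their summed level was 9585 to 12870 CPM in RemoLV, 1158 to 2461 in DOX, 833 to 1296 in MYO, 304 to 1308 in Hyper and 148 to 219 in Control. Against Control, all 4 tested atrial markers were higher and all 5 ventricular markers lower in RemoLV in the edgeR quasi-likelihood test. MYL7 was also higher in DOX (16.3-fold) and MYO (11.4-fold), as was MYL4 (4.85-fold and 5.23-fold), while GJA5 and KCNJ3 were not called there. MYL7 made up most of the atrial sum in both drug groups, with means of 1514 and 1056 CPM. BMP10, found but not tested, was at most 0.169 CPM in RemoLV. Under both sets of names the 3 libraries labelled RemoLV on the count files are given as LV, so their tissue label is in doubt. The part of these marker differences in the results for RemoLV was not tested.

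The measured members, which leave out PLN, spanned a wide range of levels. Per kilobase of exon in the RefSeq annotation, ATP2A2 was highest in the Control libraries at 748 ± 132 CPM per kb (SD, n = 3), followed by CAMK2D at 357 ± 26.5, HRC at 295 ± 70.1 and CASQ2 at 294 ± 81.6. The ranges of the latter 3 overlapped, so their order is not resolved. RYR2 had 100 ± 28.4, SLC8A1 46.2 ± 8.76, TRDN 36.2 ± 0.600 and JPH2 11.7 ± 0.610 CPM per kb. SLN was lowest at 0.978 ± 1.16 CPM per kb. In RemoLV, SLN reached 50.4 ± 21.2 CPM per kb, a range that overlapped that of RYR2 (49.4 ± 8.17). These values depend on the exon lengths used, from 1.231 kb for SLN to 20.259 kb for SLC8A1. The lengths are of RefSeq exons, while the reads were counted per Ensembl gene.

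**Figure D1:**
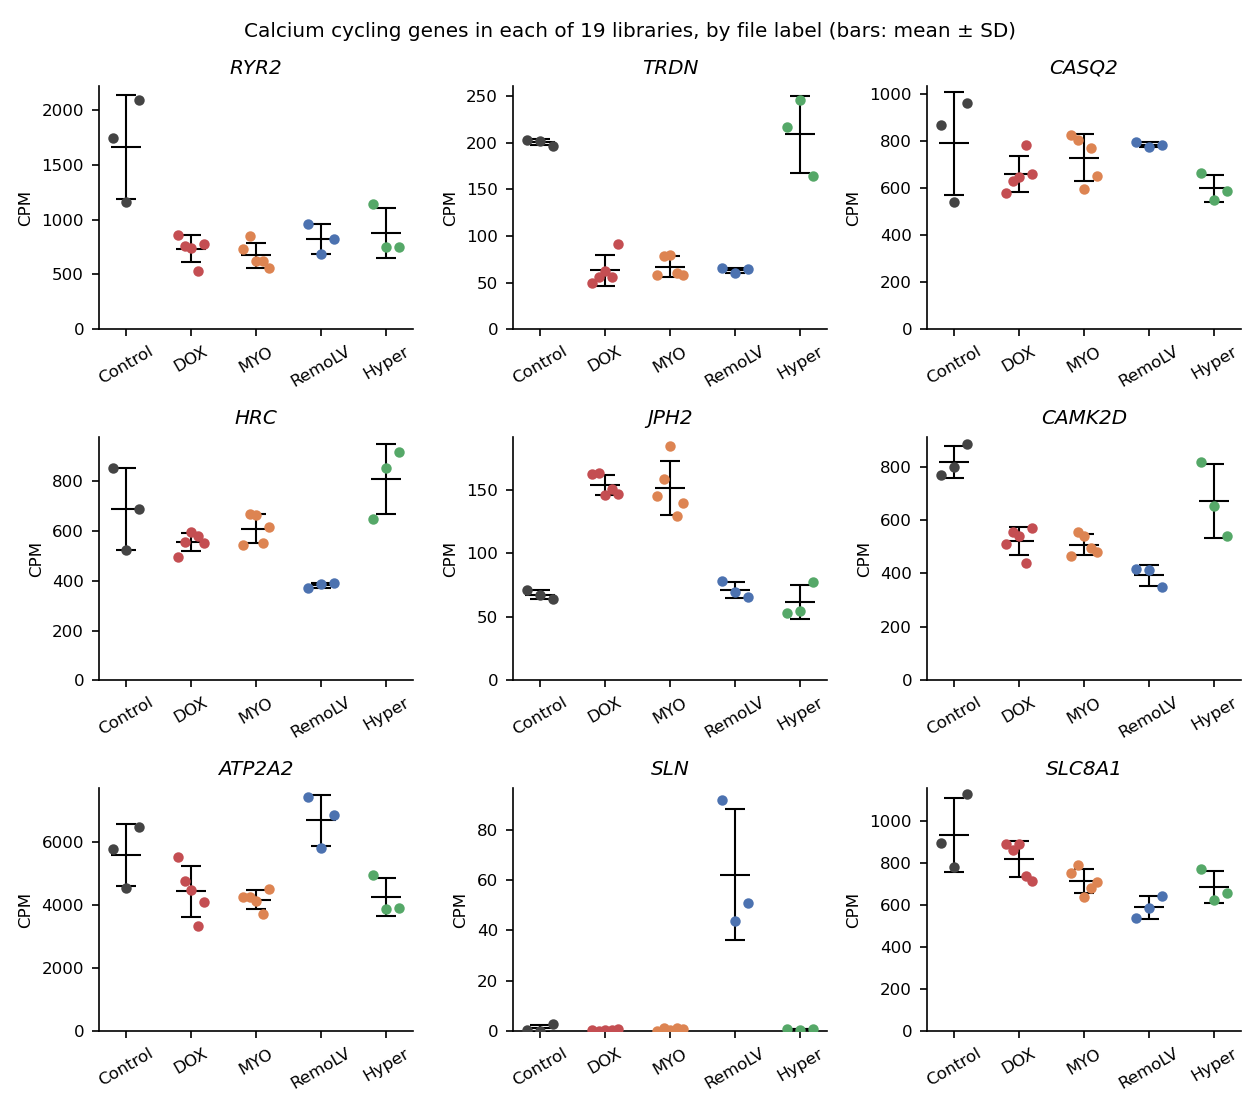
Each panel plots the CPM of 1 gene in each of the 19 libraries (points) by file label, with the mean and SD of each group as bars. TRDN lies at 164 CPM or above in Control and Hyper and at 91.6 CPM or below in the other groups, JPH2 lies at 129.5 CPM or above in DOX and MYO and at 78.0 CPM or below elsewhere, and SLN lies at 43.7 CPM or above in RemoLV and at 2.82 CPM or below elsewhere.

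Upstream sequence is shown for the members whose levels set the groups apart most clearly: SLN, which separates RemoLV from the rest, and JPH2 and TRDN, which move in opposite directions in DOX and MYO. Each is the 250 bases before the RefSeq gene start in Sscrofa11.1, the build the authors used, written 5′ to 3′ on the strand of the gene: SLN at chr9:36242406-36242655 (minus strand), JPH2 at chr17:46665327-46665576 (minus strand) and TRDN at chr1:39180294-39180543 (plus strand). The SLN gene itself spans chr9:36232955-36242405, JPH2 chr17:46590302-46665326 and TRDN chr1:39180544-39567245. Capitals mark a T-box match (AGGTGT) in SLN and an NR2F motif (AGGTCA, here on the other strand) in JPH2.
SLN: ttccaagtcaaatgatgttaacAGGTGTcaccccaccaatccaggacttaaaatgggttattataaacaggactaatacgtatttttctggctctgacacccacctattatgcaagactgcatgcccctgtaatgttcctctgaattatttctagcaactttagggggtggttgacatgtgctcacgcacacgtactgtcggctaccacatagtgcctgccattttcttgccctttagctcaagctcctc
JPH2: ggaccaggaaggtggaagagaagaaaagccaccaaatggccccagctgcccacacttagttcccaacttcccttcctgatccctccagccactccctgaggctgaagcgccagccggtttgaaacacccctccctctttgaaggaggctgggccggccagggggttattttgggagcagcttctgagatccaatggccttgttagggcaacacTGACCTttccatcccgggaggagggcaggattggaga
TRDN: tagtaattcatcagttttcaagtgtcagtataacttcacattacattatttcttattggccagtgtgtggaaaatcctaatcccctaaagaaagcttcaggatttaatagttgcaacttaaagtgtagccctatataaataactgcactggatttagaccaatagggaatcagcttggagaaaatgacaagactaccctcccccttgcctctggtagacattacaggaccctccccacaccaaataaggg

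Motifs were searched on both strands in these windows of all 10 members and of 19556 pig genes. The T-box letters occurred in 10.3% of all windows and in 1 of 10 members, SLN, at positions -228 to -223 before the start, where they overlap an E-box (CANNTG) at -229 to -224. The NR2F letters occurred in 12.2% of all windows and in 3 members, with that of JPH2 at -37 to -32. E-boxes occurred in 61.9% of all windows and in 8 members. The GATA letters (AGATAA) occurred in 8.08% of windows and in 1 member, and the MEF2 letters (CTA, any 4 bases, then TAG) in 2.31% of windows and in no member. GC content of the printed windows was 44.8% in SLN, 39.6% in TRDN and 58.0% in JPH2. A match is a run of letters and not a measured binding site.

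JPH2 separated the drug groups from all other libraries, and TRDN separated them from Control and Hyper but not from RemoLV. TRDN had 202, 202 and 196 CPM in the Control libraries and 217, 246 and 164 CPM in Hyper. In DOX it had 49.7, 56.3, 62.9, 55.7 and 91.6 CPM and in MYO 58.4, 78.4, 79.98, 60.2 and 58.0 CPM. The libraries of both drug groups lay below every Control and Hyper library.

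Against Control, TRDN was 3.17-fold lower in DOX (log2 fold change -1.66, SE 0.17, adjusted p = 1.46e-06) and 2.99-fold lower in MYO (-1.58, SE 0.17, adjusted p = 2.55e-06, edgeR quasi-likelihood test). In RemoLV, with 65.2, 60.1 and 64.6 CPM, it was 3.17-fold lower as well (-1.66, SE 0.20, adjusted p = 4.48e-06). In Hyper the difference was 0.06 (SE 0.19, adjusted p = 0.894). DOX and MYO together were 3.21-fold below Hyper (-1.68, SE 0.14, adjusted p = 1.17e-07), and this difference was -1.69 by table names. By table names the comparisons with Control read differently for TRDN, at -0.16 in DOX (adjusted p = 0.413), 0.22 in MYO (adjusted p = 0.268), 1.66 in RemoLV (adjusted p = 4.85e-07) and 1.72 in Hyper (adjusted p = 3.94e-07), since the low libraries are then those named Control.

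By file labels JPH2 was the only member called higher in the drug groups, and its direction and call were the same by table names. It had 70.8, 67.3 and 63.8 CPM in Control, 78.0, 69.6 and 65.5 CPM in RemoLV and 53.4, 54.7 and 77.3 CPM in Hyper. In DOX it had 162, 163, 146, 151 and 147 CPM, and in MYO 146, 158, 185, 130 and 140 CPM. All 10 drug-treated libraries lay above all 9 others.

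Relative to Control, JPH2 rose 2.29-fold in DOX (1.19, SE 0.13, adjusted p = 3.34e-06) and 2.25-fold in MYO (1.17, SE 0.13, adjusted p = 4.12e-06, edgeR). By table names these values were 1.11 (adjusted p = 5.3e-06) and 1.10 (adjusted p = 6e-06). Against Hyper, JPH2 was 2.47-fold higher in DOX and MYO together (1.30, SE 0.12, adjusted p = 4.39e-07), whereas RemoLV and Hyper differed from Control by 0.08 (SE 0.14, adjusted p = 0.672) and -0.12 (SE 0.14, adjusted p = 0.667). The JPH2 to TRDN count ratio, a description chosen after the values were seen, was 1.61 to 3.26 in DOX, 2.02 to 2.49 in MYO, 1.01 to 1.20 in RemoLV, 0.325 to 0.350 in Control and 0.223 to 0.472 in Hyper.

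**Figure D2:**
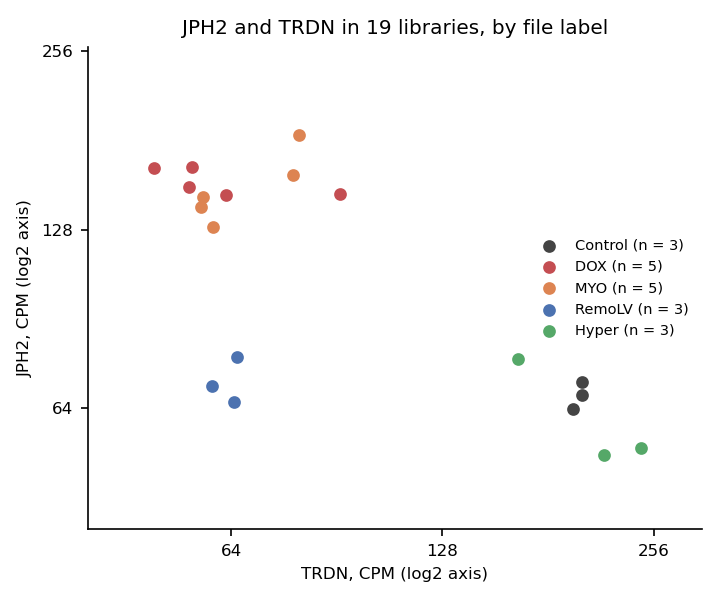
JPH2 against TRDN in 19 libraries by file label, both in CPM on log2 axes, with 1 point per library. The 10 DOX and MYO libraries lie at high JPH2 and low TRDN, Control and Hyper at low JPH2 and high TRDN, and RemoLV at low levels of both genes.

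Markers of other cells differed between the groups as well. Of 6 fibroblast markers 3 were higher than in Control in DOX (COL1A1, COL1A2 and COL3A1), the same 3 were higher in MYO, where PDGFRA was lower (-1.19, adjusted p = 0.00984, edgeR), and these 3 and DCN were higher in RemoLV. Their summed level was 4721 to 7020 CPM in DOX, 4529 to 6606 in MYO and 10670 to 12330 in RemoLV, against 2035 to 3432 in Control and 1535 to 3823 in Hyper. The summed level of 9 cardiomyocyte markers found of 12 listed was 39370 to 50200 CPM in DOX, 41250 to 47390 in MYO, 38350 to 41510 in RemoLV, 43310 to 57640 in Control and 48290 to 57340 in Hyper. The latter did not move as one: 2 were higher and 5 lower than in Control in DOX, 2 and 5 in MYO, and 2 and 7 in RemoLV, where ACTC1 was 4.37-fold and DES 1.68-fold higher. Of 4 endothelial markers 1 was higher and 1 lower than in Control in DOX (VWF and PECAM1), none passed in MYO and 2 were lower in RemoLV (PECAM1 and CDH5). Of 4 leukocyte markers CD163, a macrophage receptor, was 2.07-fold lower in DOX, 2.12-fold lower in MYO and 2.56-fold lower in RemoLV. PTPRC was 2.02-fold higher in DOX, and CD68 rose 2.73-fold in RemoLV and 1.77-fold in DOX. Of 3 smooth muscle markers none passed the test against Control, and in Hyper no marker of these lists did. The part of these markers in the members' differences was not tested. In bulk tissue, fewer cardiomyocytes and less RNA per cardiomyocyte cannot be told apart. With libraries scaled to cardiomyocyte genes instead of all genes, the median of all genes against Control moved to 0.50 in RemoLV, 0.35 in DOX, 0.29 in MYO and 0.05 in Hyper, and that of both drug groups against Hyper to 0.28. On this scale JPH2 was still higher in DOX (1.52) and MYO (1.43), and TRDN still lower in DOX (-1.33), MYO (-1.32) and RemoLV (-1.18), each with an adjusted p under 0.05 in edgeR. JPH2 was then also higher in RemoLV (0.57, adjusted p = 0.00659), close to the shift of the median there.

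RYR2, the release channel itself, was lower in DOX, MYO and RemoLV than in the libraries labelled Control. It had 1746, 1156 and 2090 CPM in Control, 857, 764, 745, 533 and 782 CPM in DOX, and 729, 849, 618, 620 and 557 CPM in MYO. RemoLV had 958, 686 and 823 CPM and Hyper 1141, 747 and 746 CPM. Every library of the 4 model groups lay below the lowest Control library, and the 4 model groups overlapped each other.

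The RYR2 difference from Control was -1.18 in DOX (SE 0.20, 2.26-fold lower, adjusted p = 0.000181), -1.30 in MYO (SE 0.20, 2.47-fold lower, adjusted p = 7.5e-05) and -1.02 in RemoLV (SE 0.23, 2.02-fold lower, adjusted p = 0.00133). With cardiomyocyte scaling these were -0.81, -0.99 and -0.48 (adjusted p = 0.0473 in RemoLV). In Hyper a difference of similar size (-0.92, SE 0.23) missed the threshold in edgeR (adjusted p = 0.108) and passed it in DESeq2 (adjusted p = 0.00937). Without Hyper replicate 1 it was -1.16 (adjusted p = 0.0208), and without Control replicate 2, -1.13 (adjusted p = 0.00268). By table names RYR2 was no longer called in DOX (-0.18, adjusted p = 0.529) or MYO (-0.26, adjusted p = 0.35) and was higher in RemoLV (1.02, adjusted p = 0.0014), with 0.09 in Hyper (adjusted p = 0.78). DOX and MYO together did not pass the test against Hyper for RYR2 (-0.32, SE 0.18, adjusted p = 0.179).

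CASQ2 did not pass the test in any of the 7 comparisons, by file labels or by table names. It was called higher in RemoLV than in Hyper when only those 2 groups were fitted (0.39, adjusted p = 0.0426). With cardiomyocyte scaling it was called higher in RemoLV against Hyper (0.83, adjusted p = 0.000638) and against Control (0.52, adjusted p = 0.0129), and in the drug groups against Hyper (0.47, adjusted p = 0.0123). It had 869, 542 and 959 CPM in Control, and the group means of the others ran from 598 ± 58.7 CPM in Hyper (SD, n = 3) to 784 ± 10 CPM in RemoLV (n = 3). The widest spread was within Control, where replicate 2 lay lowest. Without that library, CASQ2 was lower in DOX (-0.47, adjusted p = 0.00748), MYO (-0.33, adjusted p = 0.0489) and Hyper (-0.61, adjusted p = 0.00819) in edgeR.

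HRC, a histidine-rich calcium-binding protein of the store, had 371, 386 and 390 CPM in RemoLV, below all other libraries. It had 851, 524 and 687 CPM in Control, 649, 854 and 919 CPM in Hyper, 496 to 594 CPM in DOX (median 557) and 544 to 667 CPM in MYO (median 614). It was 1.80-fold lower in RemoLV than in Control (-0.85, SE 0.15, adjusted p = 0.000255) and 2.11-fold lower than in Hyper (-1.08, SE 0.15, adjusted p = 3.7e-05). DOX and MYO together were below Hyper by a smaller amount (-0.47, SE 0.12, adjusted p = 0.00583, edgeR). With cardiomyocyte scaling, HRC was no longer called in RemoLV against Control (-0.32, adjusted p = 0.07) or in the drug groups against Hyper (-0.21, adjusted p = 0.175). Neither drug group passed the edgeR test against Control (DOX -0.31, adjusted p = 0.0761, and MYO -0.18, adjusted p = 0.312). DESeq2 called HRC lower in DOX (-0.33, adjusted p = 0.045), and without Control replicate 2 both did (-0.47, adjusted p = 0.00669, and -0.34, adjusted p = 0.039). By table names HRC was instead higher than Control in DOX (0.53, adjusted p = 0.00739), MYO (0.67, adjusted p = 0.00144), Hyper (1.08, adjusted p = 3.49e-05) and RemoLV (0.85, adjusted p = 0.000244), and the difference of RemoLV from Hyper was no longer called (-0.23, adjusted p = 0.42).

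CAMK2D, the calcium and calmodulin dependent kinase that phosphorylates RYR2 and PLN, had 767, 799 and 884 CPM in Control. It had 439 to 568 CPM in DOX (median 542), 466 to 557 CPM in MYO (median 494) and 417, 415 and 349 CPM in RemoLV, all below the lowest Control library. Hyper spread from 542 to 817 CPM and overlapped both Control and the drug groups. CAMK2D was 1.56-fold lower in DOX (-0.64, SE 0.12, adjusted p = 0.000492), 1.61-fold lower in MYO (-0.69, SE 0.12, adjusted p = 0.000286) and 2.08-fold lower in RemoLV (-1.05, SE 0.14, adjusted p = 1.26e-05) than in Control. The call in DOX was lost with cardiomyocyte scaling (-0.31, adjusted p = 0.0994), and by table names all 3 signs turned (0.35, 0.43 and 1.05). DOX and MYO together were lower than Hyper (-0.38, SE 0.11, adjusted p = 0.012), a call lost without Hyper replicate 1 (-0.21, adjusted p = 0.195) and with cardiomyocyte scaling (-0.13, adjusted p = 0.488). The same call was lost in edgeR with a replicate block (-0.34, adjusted p = 0.0586). RemoLV was also lower than Hyper (-0.77), a call lost with cardiomyocyte scaling (-0.32, adjusted p = 0.119) and by table names (0.28, adjusted p = 0.279).

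ATP2A2, the pump, was the most abundant of the measured members per length of exon. It passed the edgeR test against Control by file labels in MYO alone. It had 5793, 4542 and 6492 CPM in Control, 3342 to 5535 CPM in DOX (median 4497), 3722 to 4523 CPM in MYO (median 4272), 7436, 5839 and 6862 CPM in RemoLV and 4967, 3899 and 3934 CPM in Hyper. The MYO libraries lay just below the lowest Control library, and RemoLV above every Hyper, DOX and MYO library. Against Control the pump was 1.34-fold lower in MYO (-0.42, SE 0.15, adjusted p = 0.0302), a call lost without Control replicate 1 (-0.40, adjusted p = 0.0849), Control replicate 3 (-0.30, adjusted p = 0.183), MYO replicate 3 (-0.42, adjusted p = 0.0516) or MYO replicate 4 (-0.38, adjusted p = 0.0667) and with cardiomyocyte scaling (-0.12, adjusted p = 0.534). The MYO call was also lost in edgeR with a replicate block (-0.325, adjusted p = 0.0811). DOX differed from Control by -0.33 (SE 0.15, adjusted p = 0.0833), RemoLV by 0.26 (SE 0.17, adjusted p = 0.219) and Hyper by -0.39 (SE 0.17, adjusted p = 0.239). The DOX difference passed the test without Control replicate 2 (-0.47, adjusted p = 0.0224) or DOX replicate 1 (-0.44, adjusted p = 0.0255), and in DESeq2 (-0.36, adjusted p = 0.049). RemoLV was 1.57-fold above Hyper (0.65, SE 0.17, adjusted p = 0.00597, edgeR), and with cardiomyocyte scaling also above Control (0.78, adjusted p = 0.000606), where the median of all genes moved by 0.50. By table names ATP2A2 was lower than Control in DOX (-0.58, adjusted p = 0.00661), MYO (-0.69, adjusted p = 0.00184) and Hyper (-0.65, adjusted p = 0.00557). It was then at -0.26 in RemoLV (adjusted p = 0.214), and RemoLV no longer passed the test against Hyper (0.39, adjusted p = 0.236).

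SLN, a short peptide that slows the pump, was near its detection limit in all groups but RemoLV. The 3 RemoLV libraries had 1306, 775 and 569 counts, or 91.9, 43.7 and 50.7 CPM. Control had 9, 2 and 40 counts (0.672, 0.119 and 2.82 CPM) and Hyper 13, 8 and 12 counts (0.893, 0.602 and 0.805 CPM). DOX and MYO had 1 to 18 counts in each library, at 0.0848 to 1.25 CPM.

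In the fit, SLN was 52.5-fold higher in RemoLV than in Control (5.71, SE 0.60, adjusted p = 1.15e-06) and 79.7-fold higher than in Hyper (6.32, SE 0.63, adjusted p = 8.55e-07). The first value ran from 5.12 to 7.35 as single libraries were left out, and 40 of 51 Control counts came from Control replicate 3. SLN was the only member that was also past an absolute log2 fold change of 2, against Control (6.35% of tested genes) and against Hyper (4.93%). No member passed it in DOX, where 2.75% of genes did, in MYO (2.47%) or between the 2 drug groups and Hyper (1.75%). By table names the value in RemoLV was -5.71, and those in DOX, MYO and Hyper were -7.25, -5.92 and -6.32, all with adjusted p under 0.05 in edgeR, while RemoLV and Hyper then differed by 0.60 (adjusted p = 0.647). The 3 libraries with SLN are those with 6029 CPM or more of MYL4, and SLN itself is known as an atrial gene.

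**Figure D3:**
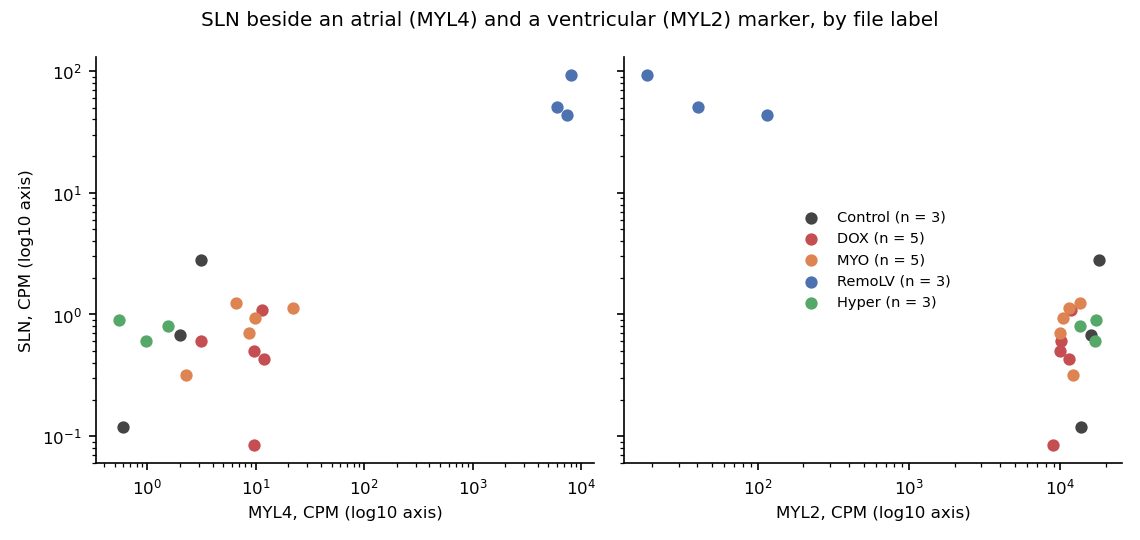
SLN against the atrial marker MYL4 (left) and the ventricular marker MYL2 (right) in 19 libraries by file label, all in CPM on log10 axes. The 3 RemoLV libraries stand apart with 43.7 to 91.9 CPM of SLN, at least 6029 CPM of MYL4 and at most 115 CPM of MYL2.

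SLC8A1, the exchanger, was lower in MYO and RemoLV. It had 897, 782 and 1130 CPM in Control, 718 to 895 CPM in DOX (median 866), 641 to 794 CPM in MYO (median 712), 538, 590 and 646 CPM in RemoLV and 772, 628 and 659 CPM in Hyper. RemoLV and Hyper lay below all Control libraries, while DOX and MYO overlapped Control. The difference from Control was -0.39 in MYO (SE 0.12, 1.31-fold, adjusted p = 0.0176), lost without Control replicate 3 (-0.23, adjusted p = 0.188), and -0.66 in RemoLV (SE 0.14, 1.58-fold, adjusted p = 0.000857). Both calls were lost with cardiomyocyte scaling (-0.09, adjusted p = 0.619, and -0.15, adjusted p = 0.376, edgeR). The MYO call was also lost in edgeR with a replicate block (-0.31, adjusted p = 0.0938). In Hyper the difference from Control was -0.45 (SE 0.14, adjusted p = 0.142), and DESeq2 gave -0.46 (adjusted p = 0.0494). By table names SLC8A1 was higher in DOX (0.49, adjusted p = 0.00612) and RemoLV (0.66, adjusted p = 0.000685).

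The SLC8A1 to ATP2A2 count ratio sets extrusion mRNA beside uptake mRNA within a library and does not depend on library scaling. It was 7.23, 9.42 and 10.1 exchanger counts per 100 pump counts, in ascending order, in the RemoLV libraries, 15.5 to 17.4 in Control, 15.5 to 16.7 in Hyper, 16.2 to 22.1 in DOX and 15.5 to 18.6 in MYO. All RemoLV libraries lay below all others. The difference of RemoLV from Control was -0.92 on the log2 scale and from Hyper -0.87, each with an exact 2-sided permutation p of 0.1, the smallest that 3 against 3 libraries allow, and 0.3 after Benjamini-Hochberg adjustment over 6 comparisons. In the other 4 comparisons the log2 difference ran from -0.05 to 0.16, with exact p from 0.179 to 0.607. By table names the ratio was higher than in Control in every model, with log2 differences of 1.08 (DOX), 0.95 (MYO), 0.92 (RemoLV) and 0.87 (Hyper). None passed the exact permutation test after adjustment (adjusted p of 0.107, 0.107, 0.15 and 0.15), and RemoLV differed from Hyper by 0.05.

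Counted over the 9 tested members at an adjusted p of at most 0.05 in edgeR, 4 were called in DOX against Control (1 higher, 3 lower), where 42.1% of all tested genes were called (21% higher, 21.1% lower). In MYO 6 were called (1 higher, 5 lower) against 42.4% of all genes (20.7% higher, 21.7% lower), and in RemoLV 6 (1 higher, 5 lower) against 47.2% (23.1% higher, 24% lower). The median log2 fold change of the members was -0.33 in DOX, -0.42 in MYO and -0.66 in RemoLV, beside 0.03, 0.02 and 0.02 over all genes. These 3 comparisons share the Control libraries. By table names the split turned, with 4 members higher and 2 lower in DOX, 3 and 2 in MYO, and 5 and 1 in RemoLV, and medians of -0.16, 0.22 and 0.66. The shares of all genes higher and lower were then 15.0% and 14.6% in DOX, 14.8% and 14.4% in MYO, and 24% and 23.2% in RemoLV. With cardiomyocyte scaling 1 member was higher and 2 lower in DOX (median 0.02, beside 0.35 over all genes), and 1 and 3 in MYO (-0.09 beside 0.29). In RemoLV 4 were then higher (SLN, ATP2A2, JPH2 and CASQ2) and 3 lower (TRDN, RYR2 and CAMK2D), with a median of -0.15 beside 0.50, while 43.6% of all genes were higher and 7.50% lower. In Hyper no member and 0% of all genes were called by edgeR, with 4 members and 2418 of all genes at an unadjusted p of at most 0.05. DESeq2 called 2 members lower there, RYR2 and SLC8A1, and 105 genes higher and 207 lower in all.

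Between DOX and MYO no member passed the test: 0 were called by edgeR or DESeq2, 0 had an unadjusted p of at most 0.05, and 0% of all genes were called by edgeR (960 at an unadjusted p of at most 0.05, and 2 called by DESeq2). For JPH2 the difference of DOX from MYO was 0.02 (SE 0.11), for TRDN -0.08 (SE 0.15), for RYR2 0.13 (SE 0.17) and for ATP2A2 0.09 (SE 0.13). By file labels the differences from Control were at least 1.17 in size for JPH2, TRDN and RYR2 in either drug group. By table names TRDN was at -0.16 in DOX and 0.22 in MYO and RYR2 at -0.18 and -0.26, none of them called. Between RemoLV and Hyper 5 members were called (SLN and ATP2A2 higher, TRDN, HRC and CAMK2D lower), where 35.6% of all genes were (17% higher, 18.6% lower). Between DOX and MYO together and Hyper 4 were called (JPH2 higher, TRDN, HRC and CAMK2D lower), where 32.6% of all genes were (15.8% higher, 16.9% lower). By table names this last count was again 4, while the count between RemoLV and Hyper fell to 0.

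**Figure D4:**
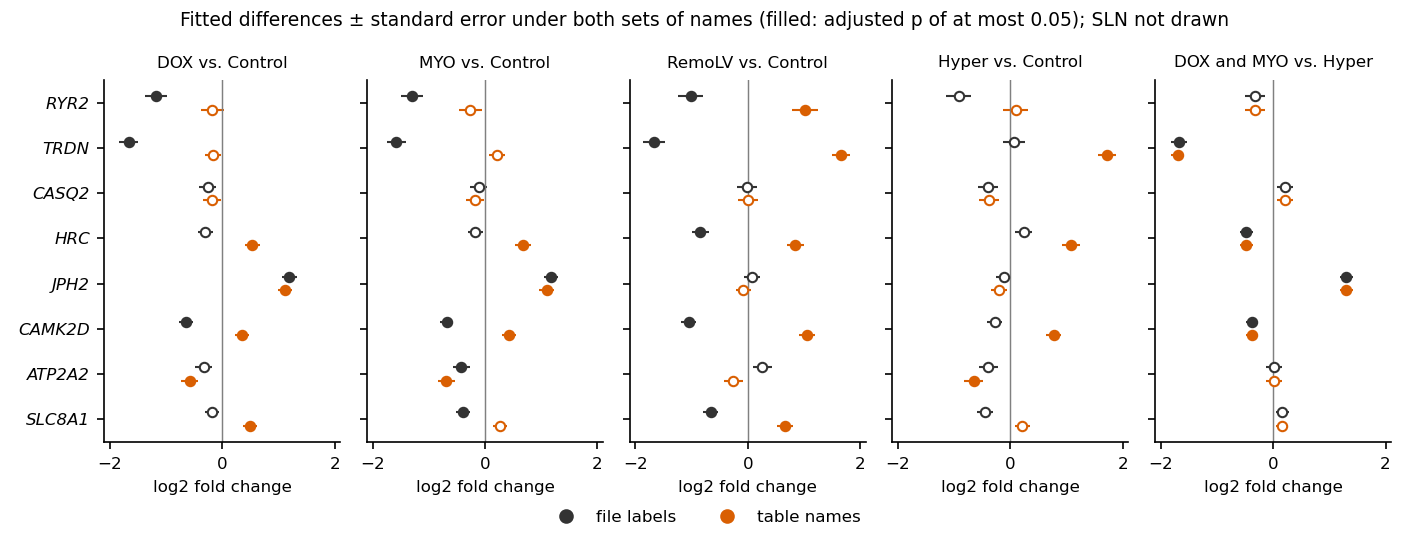
Log2 fold changes with standard errors (horizontal bars) of 8 members in 5 comparisons, by file labels (dark) and by table names (orange), with filled points at an adjusted p of at most 0.05. JPH2 lies near 1.2 in DOX and MYO under both, TRDN near -1.7 in DOX and MYO against Hyper under both, and most other comparisons with Control move or turn between the names; SLN is not drawn because its values exceed the axis.

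Of 55 other genes of calcium handling on 5 lists, 47 were found and 44 tested. In DOX 11 were higher and 10 lower than in Control, in MYO 12 and 10, in RemoLV 10 and 17, and in Hyper none passed, beside 42.1%, 42.4%, 47.2% and 0% of all genes called. With cardiomyocyte scaling these counts were 16 higher and 3 lower in DOX, 15 and 5 in MYO, and 20 and 6 in RemoLV. All genes shifted the same way on that scale, with 34.4% higher and 6.42% lower in DOX, 29.6% and 7.94% in MYO, and the shares given above in RemoLV. Of 10 tested partners of the release unit, 3 were lower and 2 higher in DOX, 4 and 2 in MYO, and 6 and 2 in RemoLV, with a median of -0.11, -0.24 and -0.50. Over all genes the medians were 0.03, 0.02 and 0.02. With cardiomyocyte scaling 2 partners were lower and 4 higher in RemoLV. The medians were then 0.21, 0.05 and 0.01, beside 0.35, 0.29 and 0.50 over all genes. By table names 2 were lower and 6 higher in RemoLV, with medians of 0.28, 0.14 and 0.50, beside 0.01, 0.01 and -0.02. Junctophilin 1 (JPH1), the relative of JPH2 best known from skeletal muscle, was lower in DOX, MYO and RemoLV, with -1.23 in DOX (SE 0.30, adjusted p = 0.00363) and -1.32 in MYO (SE 0.30, adjusted p = 0.00206), and -2.19 in RemoLV (SE 0.36, adjusted p = 0.000101). In Hyper, where JPH2 was not higher, JPH1 gave -1.22 (SE 0.35, adjusted p = 0.137), and both drug groups differed from Hyper by -0.06 (adjusted p = 0.892). It spread widely in Control, from 161 to 566 CPM, beside 120 to 254 CPM in DOX and 121 to 187 CPM in MYO, and by table names it was higher than Control in both (0.96 and 0.87) and in RemoLV (2.19). CACNA2D1, an accessory subunit of the L-type calcium channel, was -1.12 in MYO (SE 0.19, adjusted p = 0.000166), -0.98 in DOX (adjusted p = 0.00049) and -0.92 in RemoLV (adjusted p = 0.00183), the last of which was lost with cardiomyocyte scaling (-0.39, adjusted p = 0.128). By table names it was -0.17 in MYO (adjusted p = 0.551), -0.10 in DOX (adjusted p = 0.73) and 0.92 in RemoLV (adjusted p = 0.00201). CACNB2, the beta subunit of this channel, was -1.10 in RemoLV (SE 0.20, adjusted p = 0.000251), and by table names 1.10.

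Among 10 tested regulators of the pump, 5 were lower and 2 higher in DOX, 4 and 2 in MYO, and 5 and 0 in RemoLV. With cardiomyocyte scaling 1 was lower and 3 higher in DOX, 1 and 4 in MYO, and 2 and 4 in RemoLV. Of all genes, 6.42% were then lower and 34.4% higher in DOX, 7.94% and 29.6% in MYO, and 7.5% and 43.6% in RemoLV. By table names the counts were 1 and 4, 0 and 4, and 0 and 5, beside the shares of all genes given with the members. S100A1, a calcium sensor that stimulates both pump and release channel, had 303 to 561 CPM in Control, 118 to 254 CPM in DOX and 25.2 to 85.4 CPM in RemoLV. It was lower in DOX (-1.20, SE 0.32, adjusted p = 0.00562) and RemoLV (-3.21, SE 0.39, adjusted p = 6.03e-06, edgeR), while MYO gave -0.62 (SE 0.32, adjusted p = 0.123). By table names S100A1 was instead higher than Control in DOX as well as in MYO (2.52), RemoLV (3.21) and Hyper (3.48), each with an adjusted p under 0.05. PRKACB, a catalytic subunit of protein kinase A, was -1.32 in RemoLV (SE 0.19, adjusted p = 3.59e-05) and 1.32 by table names. It was also lower in DOX (-0.51, adjusted p = 0.0222) and MYO (-0.54, adjusted p = 0.0149), calls lost with cardiomyocyte scaling (-0.18 and -0.29) and turned by table names (0.70 and 0.89).

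Of the 6 tested copies of these genes used in other tissues, 3 were higher and none lower in DOX and in MYO, and 2 were higher and 3 lower in RemoLV (CAMK2A, CAMK2B and CASQ1). The count in RemoLV became 2 higher and 1 lower with cardiomyocyte scaling, beside 43.6% and 7.5% of all genes, and 3 and 1 by table names. ATP2A3, the pump isoform of non-muscle cells, was at 6.70 to 11.2 CPM in Control, 14.4 to 24.6 CPM in DOX and 16.5 to 19.8 CPM in MYO, a rise of 1.20 (SE 0.21, adjusted p = 0.000305) and 1.01 (SE 0.21, adjusted p = 0.00113). Neither call was made by table names (0.55, adjusted p = 0.0577, and 0.50, adjusted p = 0.0868). CASQ1, the skeletal calsequestrin, was -2.03 in RemoLV (SE 0.56, adjusted p = 0.00663), with 5.35 to 11.3 CPM there and 7.66 to 53.8 CPM in Control. The ranges of CASQ1 overlapped, and by table names it was higher in RemoLV (2.03).

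Among 10 tested genes of calcium removal by the surface membrane and mitochondria, 2 were higher and 1 lower in DOX and in MYO. In RemoLV 1 was higher and 3 were lower. The count in RemoLV became 3 higher and 1 lower with cardiomyocyte scaling, beside 43.6% and 7.5% of all genes. By table names it became 4 and 1. SLC8B1, the mitochondrial sodium-calcium exchanger, was higher by 1.07 in DOX (SE 0.19, adjusted p = 0.000281), 0.85 in MYO (adjusted p = 0.00167) and 0.68 in RemoLV (adjusted p = 0.0115). By table names it was not called in DOX (0.41, adjusted p = 0.0912) or MYO (0.15, adjusted p = 0.564) and was lower in RemoLV (-0.68, adjusted p = 0.01). ATP2B4, a pump of the surface membrane, differed by -1.54 in RemoLV (SE 0.17, adjusted p = 2.17e-06), and by 1.54 by table names. Among 8 genes of inositol trisphosphate receptors and store-operated entry, 5 were higher and none lower in RemoLV, with ORAI2, a channel of store-operated entry, at 1.75 (SE 0.33, adjusted p = 0.000302) and by table names at -1.75. In DOX 2 of these were higher and 1 lower, and in MYO 3 and 1. With cardiomyocyte scaling 7 of the 8 were higher in RemoLV and 5 in DOX, beside 43.6% and 34.4% of all genes. By table names 5 were lower in RemoLV and none higher, where 23.2% of all genes were lower. By table names the counts over all 5 lists were 13 higher and 5 lower in DOX, 13 and 4 in MYO, 18 and 9 in RemoLV, and 11 and 7 in Hyper, where 18.7% of all genes were higher and 17.2% lower. The shares of all genes in the other models under these names are those given with the members.

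The genes most like a member were sought among 8097 genes with a mean of at least 10 CPM, by Pearson correlation of log2 CPM over the 19 libraries. For RYR2 they were CACNA2D1 (r = 0.935), SRPK2 (0.928), DIAPH2 (0.923), CPD (0.921) and TAB2 (0.920). For ATP2A2 they were LPGAT1 (r = 0.920), ACSL4 (0.908), ZDHHC20 (0.888), ANK2 (0.882) and RAP1GDS1 (0.879). Those for SLN were KCNK3 (r = 0.964), PAM (0.960), GJA5 (0.948), SHD (0.947) and NR2F2 (0.941), and they rest on the 3 libraries labelled RemoLV, where KCNK3 had a median of 69.8 CPM against at most 0.282 CPM in the other groups. The points of each correlation share libraries, depth and group differences, and the values are descriptions.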

How the data were processed

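Raw counts per Ensembl gene were deposited by the authors, who mapped the reads with STAR (Sscrofa11.1) and used HTSeq 0.11.1 with its reverse-strand setting. The counts are not normalized. The authors' table of 14744 genes holds log2-scale expression values scaled by the authors, used here for gene symbols and for matching its columns to count files. Its fold changes and p-values, the authors' comparisons made with DESeq2, were not used.

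The members and lists were chosen with earlier results of these data known. Counts were scaled by TMM and filtered with filterByExpr in edgeR 4.0.16 (R 4.3.3), and CPM values use the TMM-scaled totals. All 5 groups were fitted in 1 quasi-likelihood model without a block, with Benjamini-Hochberg adjustment over 13552 genes in each of 7 comparisons. The procedure was tested on simulated data. Standard errors come from the same fit. Members named are all those listed. Other calcium genes are named where they passed an adjusted p of 0.05 and changed by at least 1 on the log2 scale against Control. For likeness, 0.5 CPM was added before taking logs, and for ratios 0.5 counts. The ratio test was planned for 3 ratios and was made for 1, because the level of PLN was not analysed here. Alternatives were RLE factors, cardiomyocyte gene scaling, DESeq2 1.42.0, other filters on low counts, only the groups compared, a replicate block, the table names, 5 counts added in ratios and leaving out each library. Gene positions and upstream sequence come from RefSeq on Sscrofa11.1. The labels name 1 pig per library and do not say how tissue pieces were taken.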

Additional observations from a re-analysis of the deposited data

Results flagged for a closer look

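Members are listed here because the effects of 2 models against the same Control differed in the direct edgeR quasi-likelihood comparison of those models. RemoLV differed from Hyper in SLN (log2 6.32), ATP2A2 (0.65), TRDN (-1.72), HRC (-1.08) and CAMK2D (-0.77), the last of which missed the threshold with cardiomyocyte scaling (-0.32, adjusted p = 0.119). All 5 differences involve the 3 libraries with atrial marker levels (MYL4 at 6029 to 8130 CPM), whose part in them was not tested, and the same libraries are Control by table names. DOX and MYO together differed from Hyper in JPH2 (1.30), TRDN (-1.68), HRC (-0.47) and CAMK2D (-0.38). These 4 calls hold under both names, and with cardiomyocyte scaling those of HRC (-0.21) and CAMK2D (-0.13) are lost, while experiment and follow-up cannot be told apart from the drug. In the 20 sets of values tested for 1 library far from its group (DOX and MYO only, since the other groups hold 3), none was found.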

How the results depend on the processing

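By table names, HRC, SLC8A1 and CAMK2D turned to 0.53, 0.49 and 0.35 in DOX against Control and to 0.67, 0.26 and 0.43 in MYO, where TRDN turned to 0.22. RemoLV against Control turned in SLN (-5.71), RYR2 (1.02), TRDN (1.66), SLC8A1 (0.66), HRC (0.85) and CAMK2D (1.05), and CAMK2D turned in Hyper against Control (0.77) and in RemoLV against Hyper (0.28). The table names exchange Control with RemoLV libraries and 1 DOX with 1 MYO library at once, and these were not separated. Members called became 5 in Hyper against Control, where 2528 of all genes were then higher and 2328 lower, and 0 in RemoLV against Hyper, where no gene was called. DESeq2 called 2 in Hyper and added HRC and ATP2A2 in DOX. With cardiomyocyte scaling, CASQ2 turned to 0.52 in RemoLV (adjusted p = 0.0129, edgeR), a value near the shift of all genes, and 7 calls were gained, this one included, and 8 lost. With single libraries left out, members called ranged from 4 to 8 in DOX, 4 to 8 in MYO, 6 to 6 in RemoLV, 0 to 4 in Hyper, 0 to 0 in DOX against MYO, 5 to 6 in RemoLV against Hyper and 3 to 4 in DOX and MYO against Hyper. The highest counts in DOX (8), MYO (8) and Hyper (4) came without Control replicate 2, when 3143 of all genes were higher and 3021 lower in DOX, 3165 and 3146 in MYO, and 1285 and 1253 in Hyper. Hyper had 2 without Hyper replicate 1, beside 330 genes higher and 443 lower. The cause was not tested.

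Replicate numbers did not pair the samples: deviations of 32 same-number pairs across groups had correlations from -0.246 to 0.242 (median 0.007, 4 over 0.1). A replicate block left 4 members called in DOX, 4 in MYO, 6 in RemoLV, 0 in Hyper, 0 in DOX against MYO, 5 in RemoLV against Hyper and 3 in DOX and MYO against Hyper. Of all 13552 genes it called 2370 higher and 2423 lower in DOX, 2346 and 2455 in MYO, and 3013 and 3091 in RemoLV. It called 2165 higher and 2328 lower in RemoLV against Hyper and 1736 and 1873 in DOX and MYO against Hyper. Each of these counts was lower than without the block. No gene was called in Hyper or in DOX against MYO with the block. The block cost 3 calls of members: ATP2A2 and SLC8A1 in MYO and CAMK2D against Hyper. RLE factors and the absence of a filter on low counts changed no call of a member. SLN had 1 to 40 counts per library outside RemoLV, which limits the precision of its fold changes. No SLN to PLN or PLN to ATP2A2 ratio was run.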
